A study of Mus musculus with 2 samples.

Results

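The cells described here are the ciliated cells captured in lineage-labelled mouse lung before birth (E18.5) and after it (P10). Members were chosen by detection of 6 ciliary genes, Tmem212, Ccdc153, Cfap299, Tppp3, Ccdc39 and Spag17. A cell was counted when at least 4 of them had a unique molecular identifier (UMI, 1 counted RNA molecule). The rule found 462 members among 12027 cells at E18.5 and 85 among 14086 at P10, which is 547 of 26113 cells in all. These counts correspond to 3.84% at E18.5 (exact Clopper-Pearson 95% interval 3.5 to 4.2) and 0.603% at P10 (0.482 to 0.746). All intervals given here cover counting error only, since each time point was 1 library and no test between time points was possible.

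Both libraries came from mice with a tamoxifen-inducible Cre at Cdh16 (Cdh16CreERT2) and a floxed tdTomato reporter, which the series text places at R26 in single copy and the sample labels give as flox/flox. Pregnant females received tamoxifen by injection (0.1 mg per kg) or in the diet (0.4 g per kg of food) from E12.5. The route used for each library was not stated. Dissociated lung cells were stained for CD326 (Epcam), tdTomato-positive cells were sorted, and 10x Genomics 3′ libraries were made. The labels call both samples embryonic lung and alveolar epithelial cells, give both the same batch, and do not give the number of animals. The reporter transcript was not among the listed genes, so labelling could not be read from the counts. An untreated or tdTomato-negative control was not analysed here, and sorting sets which cells were seen, so the shares are shares of sorted cells and not of the airway.

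Multiciliated cells line the conducting airways and carry many motile cilia that move mucus. Each cilium is built on a basal body and has an axoneme of doublet microtubules with dynein arms, radial spokes and a central pair. The cells arise from secretory or basal progenitors under low Notch signalling. Geminin-family regulators and E2F factors start the programme and amplify centrioles through deuterosomes, and Foxj1 and RFX factors then switch on the axonemal genes. RFX factors bind a DNA element called the X-box.

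Promoter sequence was a property that the rule did not use. Among 27025 genes with a full RefSeq promoter (GRCm38.p6, 250 bases before to 50 after the gene start), 143 (0.529%) held an X-box on either strand. It was searched as the arm GTTNCC, any 2 bases and the arm GGNAAC. Of the 419 genes that were at least 10-fold higher in members than in the remaining cells of both libraries, 337 had such a promoter and 10 of these (2.97%) held the X-box. The single arm GTTGCC, which also occurs inside some X-boxes, was present in the promoters of 127 of the 337 genes (37.7%) and in those of 3821 of all genes (14.1%). It occurred in 39 of 83 genes of the axoneme lists (47.0%) and in 75 of 234 member-enriched genes that stood in no cilium list (32.1%). For the rule genes, 4 of 6 had a promoter in the table, too few for the check. The stretches around 6 of the X-boxes are printed because they show how the element varies among member-enriched genes. Each is given 5′ to 3′ on the gene's strand, with the X-box match in capitals. A match is a description of the letters and not a measured binding site.
Ccdc151 (outer dynein arm docking, chr9:22002635-22002691, minus strand): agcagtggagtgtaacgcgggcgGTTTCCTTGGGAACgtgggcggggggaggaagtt
Iqca (nexin-dynein regulatory complex, chr1:90153500-90153559, minus strand): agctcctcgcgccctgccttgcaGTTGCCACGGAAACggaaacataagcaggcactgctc
Ttc26 (intraflagellar transport, chr6:38381468-38381523, plus strand): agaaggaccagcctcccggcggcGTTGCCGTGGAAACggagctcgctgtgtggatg
Map9 (microtubule-associated protein, chr3:82357928-82357987, plus strand): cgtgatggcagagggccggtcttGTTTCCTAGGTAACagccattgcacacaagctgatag
Pifo (ciliary protein, chr3:106001498-106001540, minus strand): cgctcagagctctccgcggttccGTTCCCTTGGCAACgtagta
Klhdc9 (kelch domain protein, chr1:171360844-171360903, minus strand): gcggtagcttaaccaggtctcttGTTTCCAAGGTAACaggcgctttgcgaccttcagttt

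The match began 34 bases before the gene start in Ccdc151, 100 in Iqca, 33 in Ttc26, 121 in Map9, 20 in Pifo and 82 in Klhdc9. Map9 had another listed gene start, and the same match began 236 bases before it. Expression of the printed genes that belong to a cilium list was low in the remaining cells of both libraries. Ccdc151 was at 41.0 UMIs per 1000000 (CPM) in E18.5 members against 0.546 in the remaining cells, and at 29.5 against 0.166 at P10. Iqca was at 99.4 against 0.746 CPM at E18.5 and at 72.0 against 0.213 at P10. Ttc26 was at 33.6 against 1.28 CPM at E18.5 and at 23.8 against 1.12 at P10.

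The libraries held 137837590 UMIs over 12739 barcodes at E18.5 and 171205348 UMIs over 14503 barcodes at P10, for 32285 listed genes. A cell was kept if it had 500 or more genes, 1000 or more UMIs and no more than 20% of UMIs from mitochondrial genes, and 3 of the 712 barcodes left out at E18.5 and 0 of the 417 left out at P10 met the ciliary rule. The kept cells had medians of 8959 and 10250.5 UMIs. The libraries shared 59 barcodes, and no barcode was a member in both. Members carried 5.23% of the kept cells' UMIs at E18.5 (7174395) and 1.13% at P10 (1929295), so the P10 sums rest on fewer molecules.

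Most members had all 6 rule genes. At E18.5, 377 cells had all 6 rule genes, 50 had 5, 35 had 4, 141 had 3 and 7434 had 0. At P10, 46 cells had all 6, 25 had 5, 14 had 4, 25 had 3 and 11755 had 0. The axoneme share, the percentage of a cell's UMIs from the lists of axonemal structure genes, had medians of 0.140% in E18.5 cells just inside the limit and 0.0395% just outside it. The corresponding P10 values were 2.25% and 0.0943%. Cells just outside were deep, with medians of 27278 and 24145 UMIs, against 11653 and 3067.5 in the cells with 4 rule genes.

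Ciliary genes outside the rule marked the same droplets, as a description of the cells that the rule selected. All 14 further ciliated markers, among them Foxj1, Rsph1, Dnah5, Dnah9, Tekt1 and Hydin, were at least 10-fold higher in members than in the remaining cells of both libraries. Foxj1, the forkhead factor of motile ciliogenesis, had a UMI in 86.4% of E18.5 members and 2.60% of the remaining cells. At P10 it had a UMI in 69.4% of members and 0.914% of the remaining cells. With every cell thinned to 3000 UMIs, which left out 29 members and 1303 remaining cells at E18.5 and 15 and 808 at P10, the Foxj1 shares were 57.0% against 0.702% and 28.6% against 0.144%. A second set of 6 genes (Foxj1, Rsph1, Dnah5, Tekt1, Dynlrb2 and Mlf1) with the same threshold of 4 kept 416 of the 462 E18.5 members (exact 95% interval 86.9 to 92.6%) and 59 of the 85 P10 members (69.4%, 58.5 to 79.0). It added 18 and 3 cells that the rule had not taken.

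Cdh16, the gene whose regulatory elements drive the Cre, was sparse in these cells. It had a UMI in 11 of 462 E18.5 members (2.38%) and in 300 of 11565 remaining cells (2.59%). No P10 member of 85 had a Cdh16 UMI, where the exact upper limit is 4.25%, and 123 of 14001 remaining cells did (0.879%). At this depth a difference between members and remaining cells was not detectable.

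The members were not uniform in composition, and this bears on each comparison that follows. At E18.5, 54 members (11.7%) had at least 5% of UMIs from the surfactant genes Sftpc, Sftpb, Sftpa1 and Sftpd. Another 100 members (21.6%) had at least 1% from the club-cell genes Scgb1a1, Scgb3a2 and Cyp2f2, and 5 had both. A further 19 members had at least 5 of 10 leukocyte markers without passing either limit, and 47 members in all had that many. The remaining 284 members (61.5%, 56.9 to 65.9) were below all of these limits and are called low-admixture members. At P10, 31 members (36.5%) were surfactant-high, 13 (15.3%) were club-gene-high, 2 were both, 4 were positive for leukocyte markers alone and 35 (41.2%, 30.6 to 52.4) were low-admixture. At least 5 leukocyte markers were present in 21 of the 85 P10 members. The low-admixture class is a range of scores and not a cell type. Whether the surfactant, club or leukocyte RNA of the other members was their own or came from other cells was not tested. Within 4 to 6% of surfactant UMIs lay 16 and 5 members at E18.5 and P10, and within 0.5 to 2% of club-gene UMIs lay 16 and 6.

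Low-admixture members were the cells with the most axonemal RNA relative to their total. Their median axoneme share was 2.60% at E18.5 (quartiles 2.16 and 3.0) and 2.96% at P10 (2.55 and 3.59). Surfactant-high members had medians of 0.757% and 0.646%, club-gene-high members 1.10% and 0.676%, and the remaining cells 0.0372% and 0.0427%. The median depth ran the other way. It was 8578 and 3222 UMIs in low-admixture members, 23715 and 17495 in surfactant-high members, and 22167.5 and 55354 in club-gene-high members. As a result low-admixture cells, although 61.5% and 41.2% of the members, held 38.9% of the member UMIs at E18.5 and 10.5% at P10. At P10 their sum came to 203318 UMIs, of which 18.3% came from 1 cell. The leukocyte limit counts detected markers and so tends to leave out deep cells. Members positive for leukocyte markers alone had medians of 23874 UMIs at E18.5 and 15124.5 at P10. The low depth of the low-admixture class is therefore partly set by its definition.

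**Figure D1:**
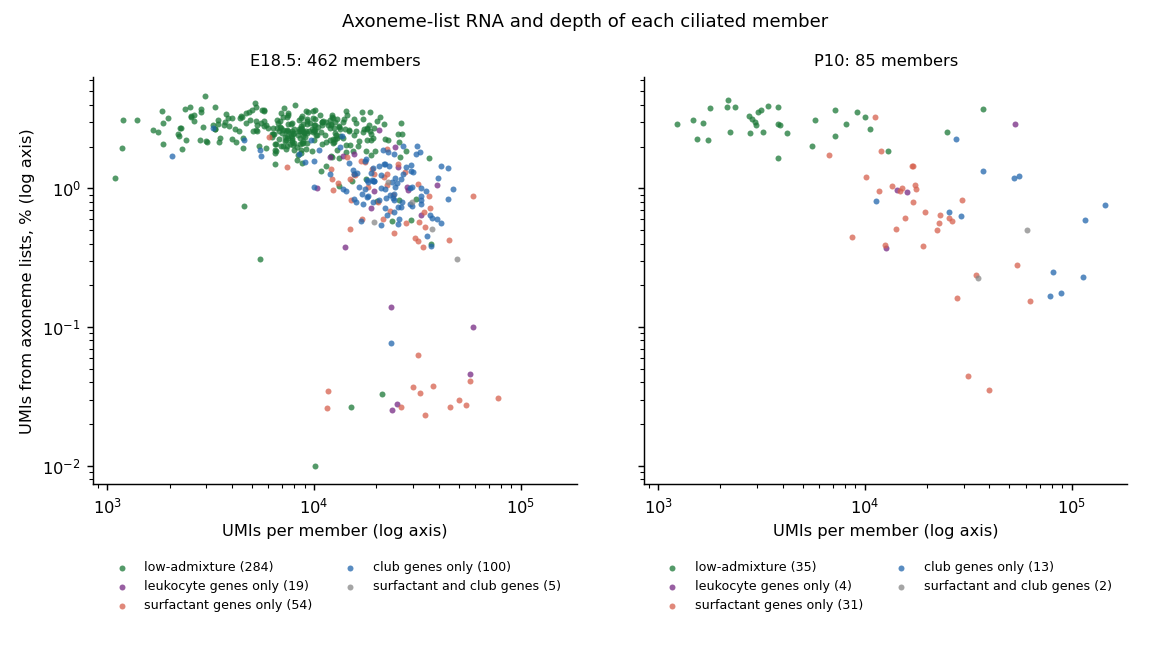
Each point is 1 member, with its total UMIs on the horizontal log axis and the percentage of its UMIs from axoneme genes on the vertical log axis, for E18.5 and P10, coloured by composition class. Low-admixture members lie at the upper left (medians 2.60% and 2.96%) and surfactant- and club-gene-high members at the lower right. A low-admixture E18.5 member with no axoneme UMI is drawn at 0.01.

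Some members carried no more axonemal RNA than the background. At E18.5, 20 members were at or below the 95th percentile of the remaining cells (0.0962%). These had a median of 30833 UMIs, 16 of them had exactly 4 rule genes, and 13 were surfactant-high. At P10, 2 members, both surfactant-high, were at or below the corresponding 0.102%. None of these 22 cells had 4 of the 6 other ciliary genes, so they meet the rule without the wider set of ciliary RNA.

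Markers of both sexes in 1 droplet gave a further measure of droplets with RNA from more than 1 animal. To match depth, each class was limited to its members between the lower and upper quartile of UMIs and set against remaining cells in the same range. Xist and a Y-linked gene were then both detected in 12 of 26 surfactant-high E18.5 members (46.2%, 26.6 to 66.6) and in 27.7% of surfactant-high remaining cells. At P10 it was 6 of 15 (40%, 16.3 to 67.7) against 40.9%. In low-admixture members it was 15 of 142 at E18.5 (10.6%, 6.03 to 16.8) against 9.40%, and 2 of 17 at P10 (11.8%, 1.46 to 36.4) against 5.11%. Club-gene-high members and their matched remaining cells had 30.0% and 30.6% at E18.5 and 57.1% (4 of 7) and 77.1% at P10. Without matching, the shares at E18.5 were 50% of the 54 surfactant-high and 10.9% of the 284 low-admixture members. Free RNA and second cells both add to these shares, and their parts were not separated.

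Genes of every axonemal group were higher in members than in the remaining cells of the same library. Because the rule used these cells' counts, these folds describe the members and test nothing. Of 9687 genes with at least 10 CPM in either sum at E18.5, 1798 (18.6%) were at least 2-fold higher and 614 (6.34%) at least 10-fold higher in members, and 616 (6.36%) were at least 2-fold lower. Among 9626 such genes at P10 the corresponding numbers were 1361 (14.1%), 504 (5.24%) and 420 (4.36%). All 97 measured axoneme genes at E18.5 and 91 of 95 at P10 were at least 2-fold higher, with medians of 77.8-fold and 76.0-fold. The 10-fold sets shared 419 genes, which is 68.2% of the E18.5 set and 83.1% of the P10 set, and 128 of the shared genes were in the cilium lists.

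The dynein motors had median folds near 100, and nearly all genes for their docking and assembly were also higher in members. All 22 measured dynein chains were at least 2-fold higher at E18.5 and 21 of 22 at P10, with medians of 86.2-fold and 114-fold. Dnah5, an outer arm heavy chain, was at 260 CPM in members and 1.55 in the remaining cells at E18.5, and at 264 and 0.752 at P10. The folds were 167 and 352. Dnah9, its outer arm partner, was at 307 against 2.86 CPM and at 246 against 1.35. The inner arm chain Dnah12 was at 767 against 32.3 CPM at E18.5 and 760 against 14.5 at P10, folds of 23.8 and 52.3. Dnah7a, Dnah7b and Dnah7c are near-identical copies whose reads the counting may split, so their single values are uncertain. All 6 docking genes were at least 2-fold higher in both libraries, and 13 of 14 assembly factors were, the exception in both being Pih1d1 (1.11-fold and 0.931-fold), a chaperone component used well beyond cilia. Lrrc6, an assembly factor, was 159-fold and 260-fold higher.

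Structural groups of the axoneme were also higher in members. The nexin-dynein regulatory complex with its ruler protein had 12 of 12 genes at least 2-fold higher in both libraries (medians 86.4-fold and 80.0-fold). The radial spoke list had 15 of 15, with Rsph1 at 412 against 4.69 CPM at E18.5 and 150 against 0.799 at P10. The central pair list had 17 of 17 (78.6-fold and 133-fold). Hydin, a giant central pair protein, was at 265 against 2.02 CPM and at 245 against 0.639. Microtubule inner proteins had 25 of 25 at E18.5 and 20 of 23 at P10. Nme7 and Cfap20 were below 2-fold at P10, at 1.41-fold and 1.76-fold. Nme7 was at 60.4 CPM in the remaining P10 cells and 20.4 in those of E18.5.

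**Figure D2:**
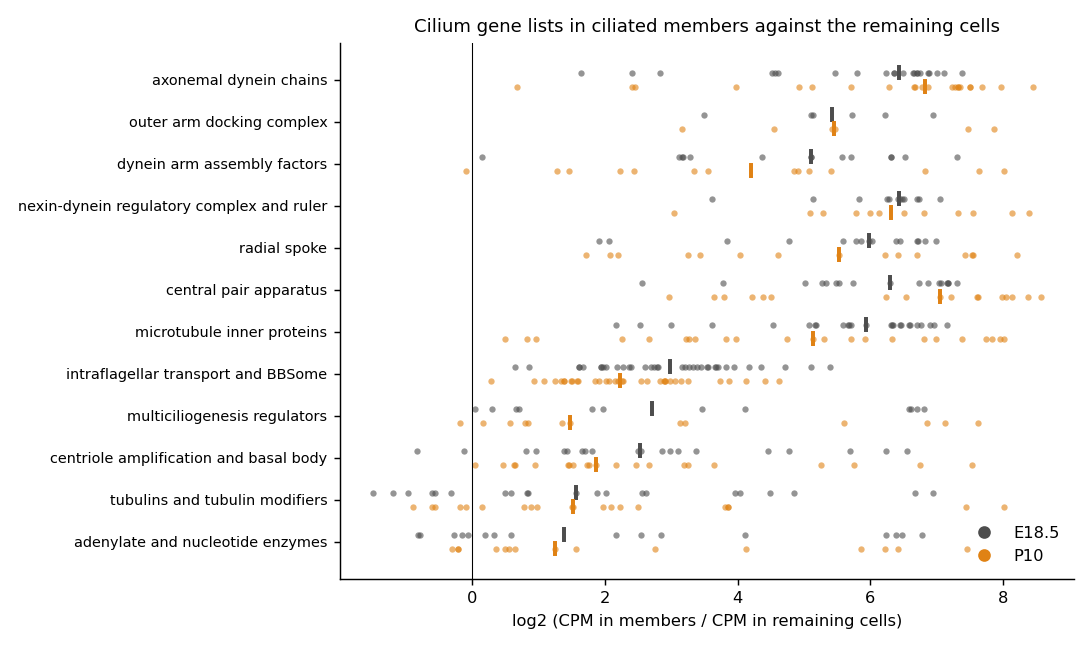
The fold of members over remaining cells is plotted on a log axis for each measured gene of the cilium lists, with the list median, for E18.5 and P10. Axonemal groups have medians near 100-fold, while intraflagellar transport and BBSome genes have medians of 7.89-fold and 4.70-fold.

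Groups that other cells also use had smaller folds. Intraflagellar transport and BBSome genes, which build primary as well as motile cilia, were at least 2-fold higher for 34 of 36 genes at E18.5 and 32 of 34 at P10. Their medians were 7.89-fold and 4.70-fold, and 15 and 5 genes reached 10-fold. Among tubulins and tubulin-modifying enzymes 11 of 21 and 11 of 20 were at least 2-fold higher. Tubb4b, a beta-tubulin of axonemes, was at 3270 against 199 CPM at E18.5 and 740 against 174 at P10, whereas Tubb5 was at 93.2 against 138 and 72.0 against 82.4. The glutamylases Ttll6 and Ttll9 were 103-fold and 124-fold higher at E18.5 and 260-fold and 175-fold at P10. Of the adenylate and nucleotide enzymes, 8 of 16 and 8 of 15 were at least 2-fold higher, with the axonemal kinases Ak7 at 76.0-fold and 58.1-fold and Ak9 at 89.5-fold and 85.4-fold.

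The rule for naming genes gave 15 genes with the largest folds that held in both libraries, and 9 of them stand in the cilium lists. They were led by Zbbx (185-fold and 399-fold), Lrriq1 (175-fold and 420-fold), Dnah5, Spag16, Lrrc6 and Rp1 (158-fold and 243-fold), and also included Elmod1, Stmnd1, Spag6l, Cfap54, Ttc29, Spef2, Wdr63, 4833427G06Rik and Sntn. Zbbx, Rp1, Elmod1, Stmnd1, Ttc29 and 4833427G06Rik are outside the cilium lists. Sntn encodes sentan, a protein of the ciliary tip. The airway factor Sox2 was at 42.2 CPM in E18.5 members against 0.939 in the remaining cells, and at 36.8 against 0.592 at P10. Nkx2-1, shared by lung epithelium, was at 209 against 232 CPM and at 142 against 212. Members also had more of the detoxifying enzymes Aldh1a1 (24.8-fold and 35.0-fold) and Cyp2s1 (40.6-fold and 116-fold), within an antioxidant and xenobiotic list where 16 of 30 and 14 of 34 measured genes were at least 2-fold higher.

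Regulators of multiciliogenesis divided into a broad and a restricted set. Trp73 was at 40.4 CPM in E18.5 members against 0.385 in the remaining cells and at 23.3 against 0.201 at P10. Myb was at 116 against 1.02 CPM and 73.6 against 1.5, and Fank1 at 140 against 1.46 and 73.6 against 0.373. Rfx3, an X-box binding factor, was 3.92-fold and 2.79-fold higher, and Rfx2 11-fold and 1.79-fold, its level in the remaining cells being 5.30 CPM at E18.5 and 38.8 at P10. E2f4 was at 1.02-fold and 0.878-fold. In all 8 of 12 and 8 of 13 measured regulators were at least 2-fold higher. Genes of the centriole amplification stage behaved differently from these and were carried by few cells.

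Deup1, the deuterosome scaffold, had 297 UMIs in E18.5 members, and 23 of the 462 cells carried 50% of them. The same share of UMIs came from 4 cells for Cdc20b, 7 for Mcidas (multicilin) and 20 for Ccno (cyclin O), against 99 cells for Foxj1 and 95 for Tppp3. At P10, 2 of 85 cells carried 50% of the UMIs of each of Deup1, Cdc20b, Mcidas and Ccno, against 7 for Foxj1. A Deup1 UMI was found in 31.2% of E18.5 members and 0.484% of the remaining cells (10.6% and 0.146% after thinning). At P10 the shares were 23.5% and 0.450% (2.86% and 0.152% after thinning). Ccno had a UMI in 8.48% of the remaining E18.5 cells and in 16.1% of those of P10, so its presence alone does not mark these cells.

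Members with at least 3 Deup1 UMIs, a limit chosen after the values were seen, numbered 20 at E18.5 and 7 at P10. Among the remaining cells 0 and 1 reached it, and the 1 cell had no UMI of Cdc20b, Mcidas, Ccno or Foxj1. In the 20 E18.5 cells Cdc20b was at 260 CPM against 2.80 in the other members, Mcidas at 90.1 against 2.80, Ccno at 232 against 20.2 and the centriole kinase Plk4 at 108 against 15. The mitotic kinase Cdk1 was at 214 against 9.14. Late axonemal genes were lower in the same cells, Sntn at 30.9 against 182 CPM, Dnah5 at 95.2 against 269 and Tppp3 at 705 against 1424, while Foxj1 was at 296 against 235. In the 7 P10 cells Cdc20b was at 195 CPM and had no UMI in the other 78 members. Mcidas was at 70.6 against 1.99, Ccno at 167 against 13.3, Plk4 at 51.8 against 7.98 and Cdk1 at 18.8 against 1.33. Sntn and Dnah5 were at similar levels there, at 68.3 against 66.5 and 254 against 267 CPM, and Tppp3 was higher, at 617 against 266. Of these 7, a club-gene-high droplet of 112940 UMIs, which also led the goblet genes described below, held 40 of the 83 Cdc20b UMIs. It also held 8 of the 30 Mcidas UMIs. Without this droplet, left out after its values were seen, Cdc20b was at 138 CPM, Mcidas at 70.5 and Ccno at 202. Sntn was then at 93.0, Dnah5 at 314 and Tppp3 at 805.

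These cells were deeper than other members, with a median of 18688.5 against 12131 UMIs at E18.5 and 52384 against 12253 at P10, and a fixed count limit favours deep cells. Among the low-admixture cells alone, 9 of 284 at E18.5 and 2 of 35 at P10 reached the limit. In the 9 cells Cdc20b was at 335 against 4.92 CPM in the other low-admixture members, Mcidas at 87.2 against 1.14, Cdk1 at 228 against 3.79, Sntn at 33.5 against 312 and Dnah5 at 127 against 432. One of these cells held 29 of their 50 Cdc20b and 6 of their 13 Mcidas UMIs, and 3 had no UMI of either gene. Without that 1 cell, left out after its values were seen, Cdc20b was at 173 CPM, Mcidas at 57.6, Cdk1 at 247, Sntn at 32.9 and Dnah5 at 156. At P10, 4 of the 7 cells were club-gene-high, and the 2 low-admixture cells had 4 Cdc20b UMIs and no Mcidas UMI. In these 2 cells Sntn was at 16.1 CPM, from 1 UMI, against 163 in the other 33 low-admixture members. Dnah5 was at 597 against 905 CPM and Tppp3 at 1114 against 1040.

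**Figure D3:**
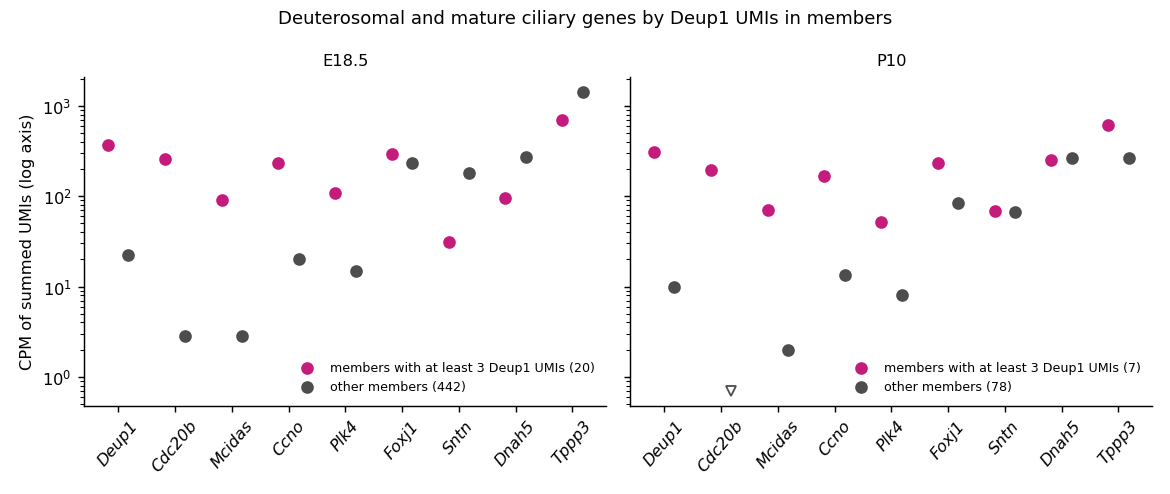
CPM on a log axis for centriole amplification genes (Deup1, Cdc20b, Mcidas, Ccno, Plk4) and for Foxj1, Sntn, Dnah5 and Tppp3, in members with at least 3 Deup1 UMIs and in the other members, for E18.5 and P10. An open triangle marks a sum with 0 UMIs (Cdc20b in the other P10 members). Deup1 defines the sets, so its own difference follows from the limit. At E18.5 the other amplification genes are higher in the first set and Sntn, Dnah5 and Tppp3 are lower.

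Between the libraries, axonemal genes as a group were lower in all P10 members and slightly higher in low-admixture P10 members, so the direction depends on which members are summed. Over all members, 853 of 9871 genes (8.64%) were at least 2-fold higher at P10 and 1336 (13.5%) at least 2-fold lower, with a median log2 ratio of -0.15. In the remaining cells 12.7% of 9037 genes were higher and 12.5% lower, with a median of 0.05. Among low-admixture members, with a minimum of 50 CPM because of the small P10 sum, 12% of 4866 genes were higher, 10.1% were lower and the median was 0.06. Of 97 axoneme genes 0 were at least 2-fold higher at P10 and 29 at least 2-fold lower over all members (median log2 ratio -0.65). In the low-admixture cells 11 of 92 were higher and 5 lower (median 0.39), the share of higher genes being near the 12% over all genes. The share of surfactant-high and club-gene-high cells differed between the libraries, as did depth, and their part in the member-wide ratios cannot be told apart from time. The median mitochondrial share of UMIs in low-admixture members was 2.75% at E18.5 and 5.49% at P10, beside 1.52% and 1.62% in the remaining cells, and its part in the low-admixture ratios was not tested.

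**Figure D4:**
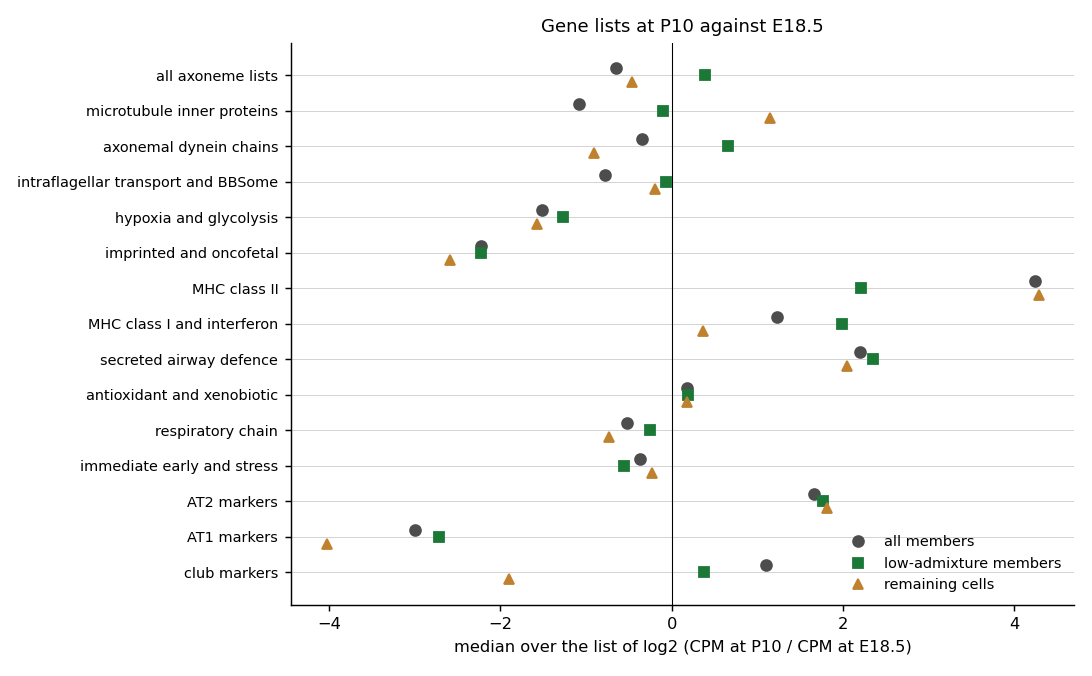
The median of log2 P10 CPM minus log2 E18.5 CPM is plotted for each gene list in all members, in low-admixture members (at least 50 CPM) and in the remaining cells, with 0 meaning equal CPM. Axoneme lists lie at -0.65 in all members and 0.39 in low-admixture members, while hypoxia and imprinted lists lie below 0 and MHC and secreted defence lists above 0 in each set.

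The axonemal groups differed among themselves in the low-admixture cells. Dynein chains had 4 of 21 genes at least 2-fold higher and 2 lower at P10 (median log2 ratio 0.65), and the central pair 2 of 17 higher (0.56) and none lower. The near-identical copies Dnah7a and Dnah7c had log2 ratios of 1.85 and 1.48. Their single values are uncertain, and so is the count of 4 higher dynein chains. Over all genes tested in these cells 12% were higher, 10.1% were lower and the median was 0.06. The central pair share of higher genes is near that 12%. Dnah5 was at 415 CPM at E18.5 and 812 at P10, a log2 ratio of 0.97 (0.72 to 1.20). Dnah6 was at 478 and 969 CPM, and Dnah1 at 51.6 and 182. Of the radial spoke genes 4 of 14 were higher, with Cfap61 at 316 and 836 CPM. Cfap46 of the central pair was at 147 and 408 CPM. The basal body appendage gene Odf2 was at 124 and 359 CPM. Dnah6, Cfap46, Cfap61, Odf2 and Dnah1 were higher at P10 by 1.02 (Dnah6) to 1.82 (Dnah1) on the log2 scale.

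Single ciliary genes were lower at P10 in the same cells. Microtubule inner proteins had 0 of 23 higher and 3 lower (median -0.10), and intraflagellar transport and BBSome genes 0 of 32 higher and 4 lower (-0.07). These shares of lower genes are near the 10.1% over all genes tested in these cells, whose median was 0.06. Tubb4b was at 5060 CPM at E18.5 and 1987 at P10, and 1 cell held 37.1% of its P10 UMIs. Tuba1a was at 2245 and 1190 CPM, the dynein light chain Dynlrb2 at 1406 and 659, the inner protein Spaca9 at 333 and 123, and the transport dynein subunit Dync2li1 at 267 and 73.8. Sntn was at 297 and 118 CPM. Foxj1 was at 394 and 261 CPM. Rsph1 was at 694 and 462 CPM, but without the 1 P10 cell that gave 58.5% of its UMIs the P10 level was 235.

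The rule genes themselves, whose detection chose the members, gave both directions in low-admixture cells and are listed as a description. Tmem212 was at 1589 CPM at E18.5 and 1013 at P10, Ccdc153 at 1192 and 939, and Tppp3, a tubulin-binding protein, at 2259 and 1062. Ccdc39, the axonemal ruler, was at 625 and 605 CPM, Cfap299 at 1137 and 1308, and Spag17 of the central pair at 619 and 935. Over all members the P10 level was below the E18.5 level for each of the 6.

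The ratio between libraries was related to gene length. Measured genes were split into 5 bins of equal size by the span of the gene model (GENCODE vM21), with limits at 8.92, 20.3, 39.2 and 85.1 kb. In low-admixture members, the 418 member-enriched genes with a length had median log2 ratios of -0.34, 0.08, 0.34, 0.42 and 0.73 from the shortest to the longest bin. All measured genes had -0.28, -0.11, 0.03, 0.19 and 0.41 in the same cells. Over all members, the enriched genes had -0.93, -0.97, -0.60, -0.53 and -0.22. The remaining cells also had higher ratios for longer genes, from -0.44 to 0.51 over all measured genes, so the relation was not particular to the members. The sources used here do not give the setting for intronic reads, whose part was not tested. Several genes above that were higher at P10 encode dynein heavy chains, which are long genes, and Tubb4b and Tuba1a are short.

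**Figure D5:**
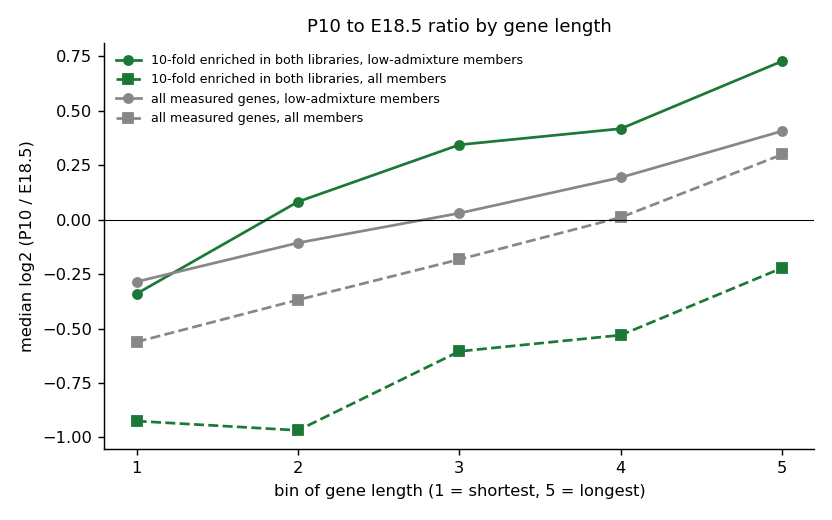
Vertical axis, median log2 of P10 CPM over E18.5 CPM, against the 5 bins of gene length (1 is the shortest), for the 418 member-enriched genes and for all measured genes, in all members and in low-admixture members. Every line is higher in the longest bin than in the shortest, and the low-admixture enriched genes run from -0.34 to 0.73.

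Groups unrelated to the cilium were lower at P10 in members and in the remaining cells alike. In the hypoxia and glycolysis list 15 of 18 genes were at least 2-fold lower over all members (median log2 ratio -1.51), 9 of 12 in low-admixture members (-1.27) and 13 of 18 in the remaining cells (-1.57). Ldha was at 383 CPM in low-admixture E18.5 cells and 128 in P10 cells, and Gapdh at 718 and 339. The imprinted and oncofetal list had 10 of 12 lower over all members (-2.23), 7 of 8 in low-admixture members (-2.23) and 12 of 14 in the remaining cells (-2.59). Dlk1 and Meg3 of this list were more abundant outside the members, at 1619 and 1728 CPM in the remaining E18.5 cells against 219 and 323 in low-admixture members. Cdkn1c, a cell cycle inhibitor, was more abundant in the members. It was at 1133 CPM in low-admixture members and 132 in the remaining cells at E18.5, and at 177 and 19.6 at P10, a log2 ratio in low-admixture members of -2.68 (-3.19 to -2.20).

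Single genes at higher levels in E18.5 members included heat-shock genes and a Notch target. Mt2, a metallothionein, was at 744 CPM in low-admixture members at E18.5 and 143 at P10, and at 91.4 and 11.6 in the remaining cells. The heat-shock genes Hspa1a and Hspa1b, near-identical copies, were at 378 and 366 CPM at E18.5 and had 1 and 2 UMIs at P10. In the remaining cells Hspa1a was at 61.5 and 16.9 CPM and Hspa1b at 44.0 and 7.92. Ooep was at 270 and 29.5 CPM in low-admixture members and at 11.6 and 5.50 in the remaining cells. The Notch target Hes1 was at 322 and 68.9 CPM in low-admixture members and at 165 and 60.0 in the remaining cells. Hopx was at 1020 and 177 CPM in low-admixture members and at 2238 and 29.8 in the remaining cells, where it is an alveolar type 1 marker. Cav1, Rtkn2 and Akap5, alveolar type 1 genes also named by the rule, were below the remaining cells in members of both libraries, whereas Hopx was above them at P10.

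Antigen presentation, interferon-related and secreted defence genes were higher in P10 members. In the MHC class I and interferon list 10 of 17 genes were at least 2-fold higher over all members (median log2 ratio 1.23), 9 of 11 in low-admixture members (1.99) and 3 of 16 in the remaining cells (0.36). H2-K1, a class I heavy chain, was at 105 CPM at E18.5 and 462 at P10 in low-admixture members and at 225 and 363 in the remaining cells. Ifitm3 was at 169 and 654 CPM against 164 and 217, and Ifi27 at 59.5 and 320 against 127 and 180. The top cell was taken for each gene separately. It held 28.7% of the H2-K1, 28.6% of the Ifitm3 and 29.2% of the Ifi27 UMIs of the low-admixture P10 sum. Without the top cell of each gene the levels were 345, 532 and 258 CPM. For Isg15 and Ifit3, 50% and 53.8% of the UMIs came from 1 cell.

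MHC class II genes were higher in members but no more so than around them. All 6 measured genes were at least 2-fold higher over all members (median log2 ratio 4.24) and 5 of 6 in the remaining cells (4.29). The invariant chain Cd74 was at 1034 CPM in P10 members and 1296 in the remaining cells, and at 251 in the low-admixture members. Alveolar type 2 markers moved the same way, with 9 of 10 higher over all members (1.66), in low-admixture members (1.77) and in the remaining cells (1.81). They made up 0.996% and 2.75% of the UMIs of low-admixture members at E18.5 and P10, and 7.72% and 17.5% of those of the remaining cells. The part of such RNA in the class II values was not tested.

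The secreted airway defence list had 17 of 19 genes at least 2-fold higher over all members (median log2 ratio 2.19), 8 of 12 in low-admixture members (2.35) and 10 of 12 in the remaining cells (2.05). Over all genes the shares were 8.64%, 12% and 12.7%. Lcn2, an iron-sequestering defence protein, was at 50.9 and 787 CPM in low-admixture members and at 288 and 2933 in the remaining cells. The goblet and secretory genes that led the ranking over all members, Bpifb1, Bpifa1, Tff2, Clca1, Muc5b, Scgb3a1 and Reg3g, came mainly from 1 P10 droplet. This droplet had 112940 UMIs, 9211 genes, 5 of the rule genes and 21.1% club-gene UMIs. Without it the log2 ratio was 4.86 in place of 10.30 for Bpifb1, 2.42 in place of 7.45 for Scgb3a1 and 1.66 in place of 6.63 for Reg3g. Bpifa1 and Muc5b were then at 2.75 and 6.06 CPM in P10 members, below the limit of 10 CPM. The count of 17 of 19 defence genes over all members thus rests in part on this droplet. In low-admixture cells another droplet gave 85.7% of the Scgb3a1 and 100% of the Chil4 UMIs at P10. Tmem132d, Acoxl, Klhl29 and Thsd4, which followed in the ranking, were less abundant in P10 members than around them, with Tmem132d at 356 CPM against 884 in the remaining cells and Acoxl at 299 against 690.

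Some single genes outside these lists or groups were also higher in low-admixture P10 members than in those of E18.5. Camk1d, a calcium/calmodulin-dependent kinase, had a UMI in 34 of 35 cells and was at 224 CPM at E18.5 and 1544 at P10, against 112 and 286 in the remaining cells. Without its top cell in each library the levels were 218 and 1449 CPM. Aldh1a1, a retinaldehyde dehydrogenase, was at 511 and 1313 CPM, with UMIs in 33 of 35 P10 cells, against 13.2 and 20.1 in the remaining cells. Txnrd1, thioredoxin reductase, was at 150 and 467 CPM against 106 and 217. Muc4, a membrane mucin, was at 10.0 and 98.4 CPM with UMIs in 13 of 35 cells, against 7.41 and 7.89. Gpx2, a glutathione peroxidase, was at 2.87 and 73.8 CPM with UMIs in 7 of 35 cells, against 5.43 and 6.04. At P10 Muc4 had 20 UMIs and Gpx2 had 15, of which 35% and 40% came from the top cell of each gene. Without that cell the P10 levels were 78.2 CPM for Muc4 and 50.4 for Gpx2. Camk1d and Aldh1a1 were thus found in nearly all low-admixture P10 cells, whereas Muc4 and Gpx2 were found in a minority.

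Genes that set the members apart from the remaining cells at E18.5 but less at P10 had higher levels in the remaining P10 cells. Cyp2b10 was at 93.2 CPM in low-admixture members and 1.03 in the remaining cells at E18.5, and at 285 and 51.8 at P10. Rnf186 was at 104 against 5.47 CPM and at 59.0 against 49.1. The reverse held for Dnah11, an outer arm heavy chain, which was at 401 against 11.3 CPM at E18.5 and 669 against 1.20 at P10. Its fold over the remaining cells was 22.9 at E18.5 and 161 at P10 over all members.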

How the data were processed

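The deposited files held whole-number UMI counts per gene and barcode for 2 libraries, 1 of E18.5 and 1 of P10, made by the authors on the mm10 build (submitters' processing notes). Per the file headers the matrices were written by Cell Ranger 7.0.1. Seurat 4.0.0 is in the notes with no role given. The kit version in the labels' protocols is v2. Totals were 137837590 and 171205348 UMIs. No doublet caller was run and free RNA was not subtracted, so droplets with 2 cells remain.

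Here, members and remaining cells were summed within each library and scaled to CPM. Genes with at least 10 CPM in either sum were compared (50 CPM for low-admixture members), and a ratio of at least 2 was counted, with exact conditional binomial or Clopper-Pearson intervals for counting error. With 1 library per time point there was no test. A ratio against 0 UMIs used a floor of 3 UMIs. The calculation was checked on simulated counts. Promoters came from RefSeq (GRCm38.p6) and gene spans from GENCODE vM21.

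The members and gene lists were chosen with earlier results of these data known. Genes were named from the lists and by size: the 15 with the largest smaller-of-both-libraries ratio over the remaining cells among genes of at least 50 CPM in both member sums, the 15 with the largest ratio between libraries in each direction at a mean of at least 50 CPM, and the 10 in each direction whose ratio differed most from that of the remaining cells. Mitochondrial, ribosomal protein, haemoglobin, sex-linked marker and clone-named gene models were left out. Genes described in low-admixture members and the Deup1 limit were chosen after their values were seen, as were the leukocyte limit and the combination of limits that defines these members. Values of some single genes are not reported here. Alternative rules, filters, scalings and weights were run. Python 3.11.15, numpy 2.4.6, scipy 1.17.1, pandas 2.3.3 and matplotlib 3.10.9 were used.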

Additional observations from a re-analysis of the deposited data

Results flagged for a closer look

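For 3 genes the ratio between libraries in all members pointed one way and that in the remaining cells the other, each by at least 2-fold. The difference was not tested, since each time point was 1 library. Retnla had a log2 ratio of P10 over E18.5 of 1.63 in members and -3.29 in the remaining cells. A single P10 droplet of 112940 UMIs held 2409 of its member UMIs, and without it the member ratio was -1.50. Ccl4 had 1.51 in members and -1.86 in the remaining cells, and -0.34 in low-admixture members, where it had 3 UMIs at P10. Basp1 had 1.45 in members and -1.13 in the remaining cells. In low-admixture members Basp1 was at 25.4 CPM at E18.5 and 113 at P10, a log2 ratio of 2.15, from 23 UMIs in 6 of 35 P10 cells, and 43.5% of these UMIs came from 1 cell.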

How the results depend on the processing

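The share of members was 3.84% at E18.5 and 0.603% at P10. It was 5.01% and 0.781% with at least 3 rule genes, and 3.24% and 0.264% with the rule applied after thinning to 3000 UMIs. It was 3.35% and 0.369% without surfactant-high members, and 2.36% and 0.248% for low-admixture members, a definition added after seeing the data. The E18.5 share was 3.45% without the members of the highest 10% of UMIs, and the P10 share 0.440% with the other 6 ciliary genes. In each of these settings the E18.5 share was above the P10 share. Counts of genes moved mainly with the minimum level. With at least 50 CPM, 795 (E18.5) and 482 (P10) genes were at least 2-fold higher in members than in the remaining cells, and 322 were higher and 668 lower at P10 than at E18.5. With no minimum these were 6607, 8633, 2360 and 2293. With each cell given equal weight, 2120 genes were higher in P10 members than in the remaining cells and 1426 were higher at P10 than at E18.5. With the thinned rule the same counts were 3268 and 1997, and in low-admixture members 3352 and 1728, from smaller P10 sums. The signs of 2 genes turned. The log2 ratio of P10 over E18.5 for Retnla was -1.72 with the thinned rule, -1.42 without the members of the highest 10% of UMIs and -1.50 without 1 P10 droplet. That for Ccl4 was -0.32 with the thinned rule and -0.34 in low-admixture members. Of 37 named genes with a 2-fold ratio between libraries, between 30 and 37 had a ratio of 2 or more in the same direction in each setting. No paired analysis was possible because each time point had 1 library. Depth limits the P10 low-admixture sum, where 1 UMI is worth 4.92 CPM.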
